A study of Mus musculus with 36 samples.

Results

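The genes of the cytosolic ribosomal proteins were followed in heart, kidney and liver of young male mice. They were taken as the protein-coding genes whose symbol starts with Rpl or Rps followed by a digit, together with Rplp0, Rplp1, Rplp2 and Rpsa. Of 103 protein-coding genes with such a symbol, 10 kinases of the Rps6k family and 3 genes with a pseudogene name were left out, so 90 of the 78239 genes in the count files remained, 54 named for the large and 36 for the small subunit. The symbols also take in Rps19bp1, which encodes a protein that binds Rps19, and Rps23rg1, a retrogene, and neither is a ribosomal protein. Fau and Rack1 encode ribosomal proteins but have other symbols, and they are given apart.

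The mice were wild-type males of the C57BL/6NCrl substrain, untreated, bought at a young age and killed at 8, 10 or 12 weeks, and each of the 9 groups of a tissue and an age has 4 libraries, 36 in all. Polyadenylated RNA was sequenced as read pairs, and each library had between 21031599 and 33637390 pairs on genes. The methods of the study call the samples of a group biological replicates, and the labels do not say which libraries of different tissues come from the same animal. The labelled tissues carried their markers. Levels are in CPM, counts scaled to the library total times a scaling factor of the library, unless said otherwise. The summed level of 8 heart muscle genes was 52900 to 70662 CPM in heart and at most 3.77 in kidney and liver. The sum of 8 kidney tubule genes was 21648 to 26938 CPM in kidney and at most 6.98 elsewhere, and each of 8 hepatocyte genes passed 1 CPM in liver. The hepatocyte genes also summed to 1212 to 2034.6 CPM in kidney, where 4 of the 8 passed 1 CPM, and to at most 27.3 CPM in heart. As these are whole tissues, a change in the number of cells of a type and a change in RNA per cell cannot be told apart.

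A mammalian cytosolic ribosome is built from a large and a small subunit, each of ribosomal RNA and a set of proteins needed at about equal numbers. Their genes are spread over the chromosomes and are expressed strongly in every growing cell. Many of their mRNAs start with a C followed by a run of pyrimidines, the 5′ terminal oligopyrimidine (5′TOP) motif, through which the growth kinase mTOR controls their translation. A few proteins have a paralog that replaces them in particular tissues, such as Rpl3l in striated muscle and Rpl39l and Rpl10l in testis.

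The start sites of some members described in kidney are shown so that this motif can be seen, with 1 member whose RefSeq start lacks it. Each line holds the 15 bases before the start annotated in RefSeq and the 15 bases from it, 5′ to 3′ on the strand of the gene, with a tract of C followed by at least 4 pyrimidines in capitals where one begins within 5 bases of that start. The sequences are those of the RefSeq promoter table on GRCm38.p6 and were located by an exact match on GRCm39.
Rpl39 (chrX:36348861-36348890, minus strand): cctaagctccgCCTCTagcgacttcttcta
Rpl31 (chr1:39406917-39406946, plus strand): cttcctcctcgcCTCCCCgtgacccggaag
Rps27 (chr3:90120941-90120970, minus strand): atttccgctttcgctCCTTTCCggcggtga
Rps27rt (chr9:114811793-114811822, minus strand): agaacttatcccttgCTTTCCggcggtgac
Rps15a (chr7:117715356-117715385, minus strand): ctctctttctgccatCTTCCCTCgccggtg
Rpl41 (chr10:128385023-128385052, minus strand): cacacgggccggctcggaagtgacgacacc
The RefSeq start of Rpl41 has no such tract in this window. The canonical transcript of Rpl41 in the Ensembl annotation starts at 128385022, just outside the window. The window thus does not show whether a tract lies at that start. Of the 67 members in the RefSeq table, 14 (20.9%) had the tract exactly at an annotated start, against 3.01% of all 27025 genes of the table, read on the strand of each gene. Within 5 bases of a start, 31 members (46.3%) and 21.2% of all genes had it.

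Unique counting limits what can be said of some members. A pair was counted only where it had a single place in the genome and overlapped a single gene. Of the 90 members, 75 share at least one 150-base window with another place in the genome, and 321 pseudogenes are named after members. In 15 members the counts of all 36 libraries together were below 10000. In these 15, a median of 45.5% of the mRNA lay in exons of other annotated genes, against 0% in the remaining 75, while the median share of copied windows was 17.1% and 16.9%. Rpl24 was counted 307 times in all libraries, with 81.5% of its mRNA inside exons of other genes, and Rps10 was counted 965 times, with 91.6%. Pairs that overlap several genes are not counted, so the counts of Rpl24 and Rps10 cannot be read as levels of their mRNA. Overlap and low counts did not always go together. Rpl5, with 66.1% of an mRNA of 3646 bases, 891 of them coding, in exons of another gene, was counted 240223 times. Rpl39l and Rps19bp1, with 0%, were counted 35 and 8084 times. The part of the overlap in the low counts was not tested. The filter on low counts passed 84 members in heart, 87 in kidney and 86 in liver. Rpl10l, which had no count in any library, Rpl27rt and Rpl39l were not tested anywhere, Rpl24, Rpl36al and Rps23rg1 were not tested in heart, and Rpl3l was not tested in liver. Changes with age are log2 fold changes from edgeR's quasi-likelihood test with Benjamini-Hochberg adjustment over all genes kept in the tissue, and a gene is called when its adjusted p is below 0.05.

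The summed level of the 90 genes was highest at 10 weeks in kidney, while the ages overlapped in heart and liver. In kidney it was 8350 ± 383 CPM at 8 weeks, 9277 ± 324 at 10 weeks and 8417 ± 347 at 12 weeks (SD, n = 4, scaled by the trimmed mean of M-values, TMM). All 4 libraries of 10 weeks, at 9004 CPM or more, lay above all 8 of the other ages, which reached 8704. As a share of the counted pairs, without any scaling factor, the values were 1.13% ± 0.0434 at 8 weeks, 1.29% ± 0.0473 at 10 weeks and 1.12% ± 0.0305 at 12 weeks, and the libraries of 10 weeks were again apart. In heart the sums were 12096 ± 942, 12292 ± 947 and 12252 ± 1292 CPM at 8, 10 and 12 weeks. In liver they were 14088 ± 1102, 14253 ± 1185 and 14990 ± 920 CPM. The ranges of the 3 ages overlapped in both of these tissues.

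**Figure D1:**
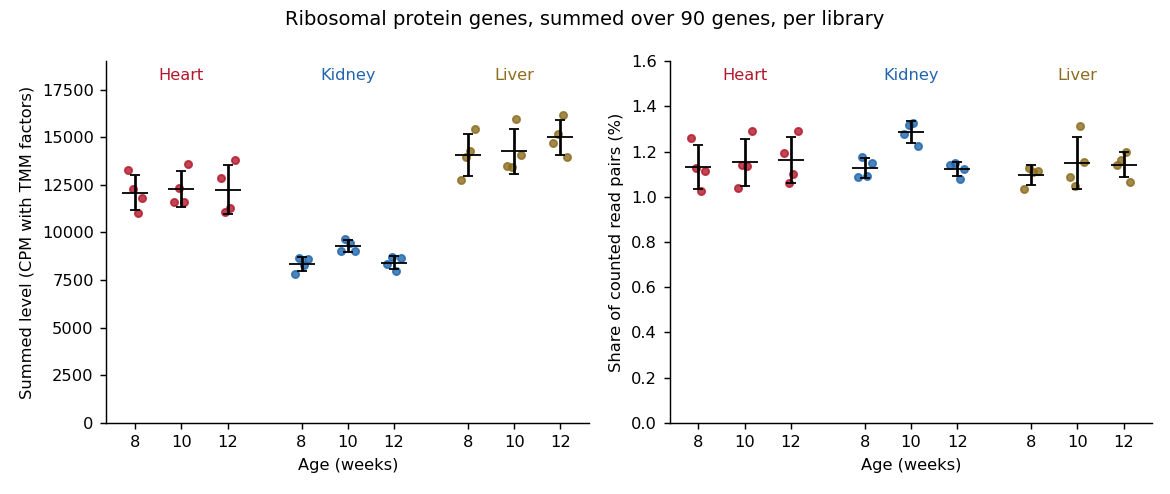
Summed level of the 90 ribosomal protein genes in each of the 36 libraries (points), in CPM with TMM factors on the left and as percent of counted pairs on the right, with the mean and SD of the 4 libraries of each tissue and age (bars). In kidney the 4 libraries of 10 weeks lie above the 8 others in both panels, while the ages overlap in heart and liver.

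The comparison of 10 with 8 weeks in kidney asked which of the genes carried this change. Of the 87 members tested, 26 rose, none fell and 61 were not called. Over all 17649 genes tested, 0.646% were called higher and 0.283% lower. The fold change was above 0 in 80 of the 87 members, and their median log2 fold change was 0.18, where the median of all genes was 0.00. At an unadjusted p below 0.05, 53 members were higher and 0 lower, where 16.5% of all genes passed in either direction. In 38 members the 4 libraries of 10 weeks lay above the 4 of 8 weeks without overlap (3.84% of all genes), and all 26 called members were among them. In 34 members, 39.1% of those tested, the 4 libraries of 10 weeks were higher than all 8 libraries of the other ages, a separation seen in 1.3% of all genes. In heart the same separation of the 10-week libraries was found in 0 of 84 members (0.443% of all genes), and in liver in 2 of 86, Rpl23a and Rplp0 (0.981% of all genes).

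The called members belong to both subunits. Of those named Rpl, 14 of 51 were called, with a median of 0.16, and of those named Rps, 12 of 36, with a median of 0.22. They include proteins of different sites on the ribosome. Rpl39 (chromosome X, 36345092 to 36349130) encodes a small protein of the exit tunnel of the large subunit. Its level in the 4 kidney libraries was 43.2, 46.0, 45.2 and 47.7 CPM at 8 weeks, 76.0, 71.8, 73.8 and 63.4 at 10 weeks, and 46.0, 47.5, 43.7 and 49.4 at 12 weeks. The 10-week libraries were all higher than the rest, and the log2 fold change against 8 weeks was 0.67 (SE 0.0620, adjusted p = 0.000348). Rps29 (chromosome 12, 69204495 to 69205960) encodes a zinc-binding protein of the small subunit. It had 29.8, 32.2, 33.4 and 29.7 CPM at 8 weeks, 57.3, 51.3, 54.9 and 45.5 at 10 weeks, and 26.3, 32.9, 29.4 and 35.6 at 12 weeks. It rose by 0.76 (SE 0.0923, adjusted p = 0.00198), without overlap of the ages 8 and 10 weeks.

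Rpl31 (chromosome 1, 39406884 to 39413938), of the large subunit, was at 16.7, 17.6, 19.4 and 18.5 CPM at 8 weeks, 30.4, 28.3, 30.8 and 25.2 at 10 weeks, and 15.7, 18.7, 16.6 and 18.9 at 12 weeks, a rise of 0.69 from 8 to 10 weeks (SE 0.0789, adjusted p = 0.00133). Exons of other genes cover 58.6% of its annotated mRNA of 3995 bases, 375 of them coding, and reads in the shared part may not be counted. Rps27 (chromosome 3, 90119819 to 90120977), of the small subunit, had 79.8, 87.1, 90.9 and 84.1 CPM at 8 weeks, 133, 148, 137 and 110 at 10 weeks, and 81.2, 85.2, 82.6 and 83.9 at 12 weeks. It rose by 0.65 (SE 0.0750, adjusted p = 0.00133). In both genes the 10-week libraries did not overlap with the others, and replicate 4 was the lowest of them.

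The largest fitted change was that of Rps27rt, a retrogene related to Rps27, at 1.45 (SE 0.255, adjusted p = 0.0198). Its level was 0.320 ± 0.1001 CPM at 8 weeks and 0.852 ± 0.173 at 10 weeks (SD, n = 4), and 48.4% of the 150-base windows of its mRNA recur elsewhere in the genome, so its counts are uncertain. Among the called members with the smallest changes were Rpl27 (0.23), Rps27a (0.25), whose product is made as a fusion with ubiquitin and whose mRNA lies to 65.5% in exons of other genes, Rps24 (0.25), Rpl12 (0.26) and Rps15a (0.27), with adjusted p from 0.0183 to 0.0474. The proteins of the acidic stalk, which recruits translation factors, gave 0.46 for Rplp0 and 0.35 for Rplp2, both called, and 0.24 for Rplp1 (adjusted p = 0.0616). Of other members named for a role, Rpl41, the shortest, was called (0.53, adjusted p = 0.00471). Not called were Rps6, the substrate of the S6 kinases (-0.04), Rpl5 (0.10) and Rpl11 (0.08), which bind Mdm2, and Rps19 (0.14) and Rps14 (0.14), whose loss is linked to anaemias.

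**Figure D2:**
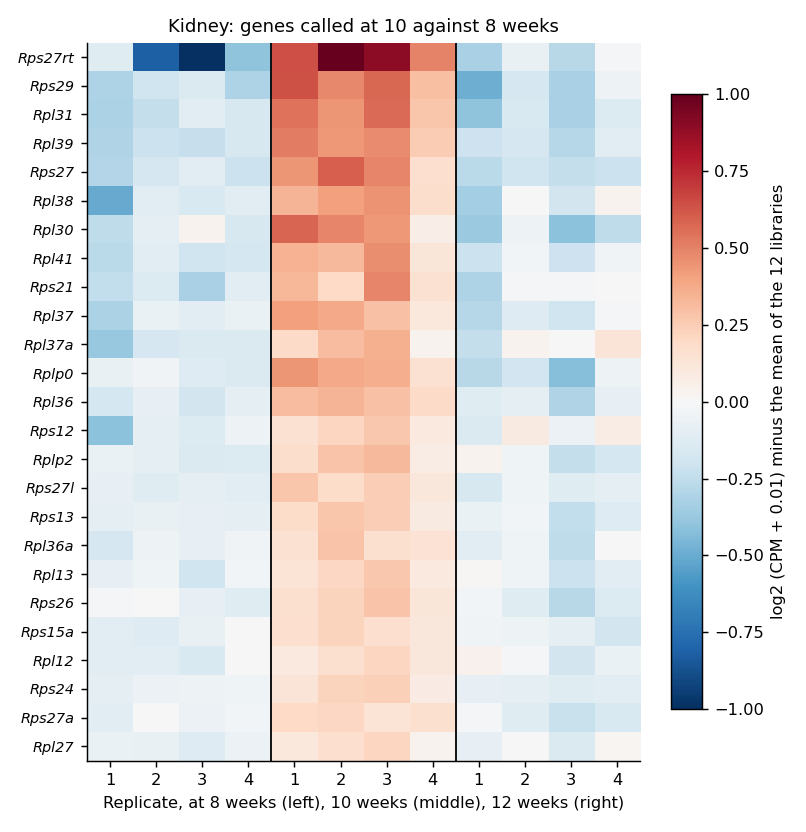
Of the 26 genes called in kidney at 10 against 8 weeks, 25 (rows, largest change first; 1 is not shown) in the 12 kidney libraries (columns, grouped by age), as log2 (CPM + 0.01) minus the mean of the gene over the 12 libraries. The 4 columns of 10 weeks are above the mean in every row, and the rows were chosen by the contrast of 10 with 8 weeks.

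From 10 to 12 weeks, 20 of the 87 members fell and none rose (0.346% of all 17649 genes were called lower and 0.136% higher). Their median log2 fold change was -0.18, 74 of 87 were below 0, and in 41 members the 4 libraries of 12 weeks were below the 4 of 10 weeks without overlap (3.51% of all genes). Among those called, low values were found for Rps29 (-0.77), Rpl31 (-0.73), Rpl30 (-0.69) and Rps27 (-0.68), with adjusted p between 0.00133 and 0.0123. Of the stalk proteins Rplp0 (-0.59), Rplp1 (-0.34) and Rplp2 (-0.34) were called. Of the members called higher from 8 to 10 weeks, 18 were called lower from 10 to 12 weeks, which is 69.2% of the first and 90% of the second list, and both comparisons use the same libraries of 10 weeks.

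Between 8 and 12 weeks 0 of 87 members were called in kidney with edgeR and with DESeq2. With edgeR 0.0397% of all genes were called higher and 0.017% lower. An unadjusted p below 0.05 was found for 6 members and for 11.7% of all genes. The smallest p values were those of Rpl35rt (1.03, adjusted p = 0.215), Rps23rg1 (0.56, adjusted p = 0.345) and Rps20 (-0.13, adjusted p = 0.381). The median was 0.01. Over the 26 members called at 10 weeks it was -0.01, with values from -0.15 to 0.43.

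The size of the kidney count depends on single libraries. Leaving out a library at a time gave 8 to 33 members higher at 10 against 8 weeks, with 8 without replicate 3 of 8 weeks or replicate 3 of 10 weeks, 12 without replicate 2 or 4 of 8 weeks or replicate 1 of 10 weeks, and 33 without replicate 4 of 10 weeks. None was called lower in any of these fits. For 12 against 10 weeks the count lower was 12 to 29, with 12 without replicate 3 and 29 without replicate 4 of 10 weeks. Rpl39, Rps29, Rpl31 and Rps27 passed the adjusted p at 10 against 8 weeks in all 19 alternatives, which include those fits.

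The change in kidney was larger in members with a short coding sequence. In members with a coding sequence of up to 300 bases, 9 of 10 were called at 10 against 8 weeks and their median log2 fold change was 0.56. It was 0.23 for the 32 members above 300 and up to 450 bases, 0.15 for the 19 up to 600 and 0.10 for the 22 up to 900 bases, and 0.12 for the 4 longest. The called members had a median coding length of 345 bases and those not called one of 534. In protein-coding genes outside the members the medians at these lengths were smaller and took a similar order, from 0.12 in the 224 genes of up to 300 bases, of which 17 were called higher and 0 lower, through 0.08, 0.05, 0.03 and 0.00, to -0.02 in those over 1500 bases. From 10 to 12 weeks the sign turned, with -0.55 in the shortest members and -0.10 in the shortest of the other genes. Short members moved the same way in liver, with smaller medians and 0 called. Those of up to 300 bases had 0.25 from 8 to 10 weeks, 10 of 10 above 0, and -0.26 from 10 to 12 weeks. Liver members above 300 and up to 450 bases had 0.05 and 0.04, and other liver genes of up to 300 bases 0.09 and -0.02. In heart the shortest members had 0.02 and -0.15. The part of transcript length in the change of the members was not tested.

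**Figure D3:**
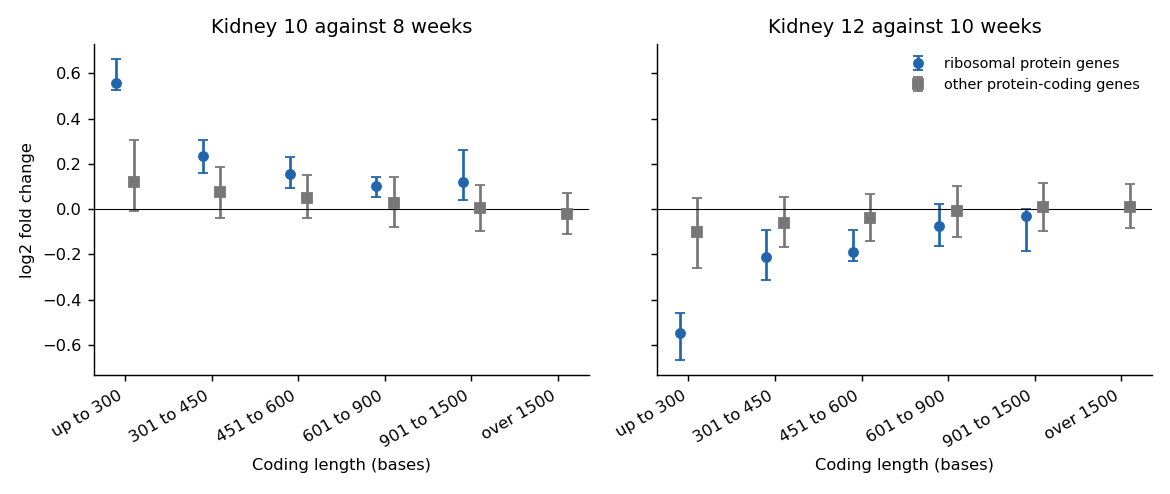
Median log2 fold change (points) and quartiles (bars) by coding length in kidney, for ribosomal protein genes and other protein-coding genes, at 10 against 8 weeks on the left and 12 against 10 weeks on the right. The shortest ribosomal protein genes have medians of 0.56 and -0.55, and the other genes of that length 0.12 and -0.10.

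Other measures of the kidney libraries were set beside this change. The share of pairs that matched several places was 8.39% ± 0.452, 8.72% ± 0.345 and 8.20% ± 0.471 at 8, 10 and 12 weeks (SD, n = 4), with overlap, and mitochondrial protein genes held 10.0% ± 0.688, 10.0% ± 0.443 and 9.71% ± 0.575 of the counts. The summed level of 12 lymphocyte markers ranged from 4.66 to 7.06 CPM at 8 weeks, 6.27 to 8.63 at 10 weeks and 10.8 to 22.5 at 12 weeks, so it was highest at 12 weeks, and 10 of the 12 markers were under 1 CPM. The sum of 9 myeloid markers was likewise highest at 12 weeks, with means of 66.9, 70.4 and 81.9 CPM. Other sums were highest at 10 weeks, as those of the members were: 6 red cell markers had means of 3.10, 4.67 and 3.46 CPM, with ranges of 2.64 to 4.30, 3.39 to 7.16 and 2.29 to 4.92, and 9 fibroblast and endothelial markers had means of 339, 371 and 342 CPM, with ranges of 255.7 to 404, 319 to 427 and 270 to 402. The ages overlapped in both. The 8 tubule markers ranged from 21648 to 25225 CPM, 24017 to 25681 and 23145 to 26938. No gene of these lists was called at 10 against 8 weeks, and the part of these cells in the change of the members was not tested.

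Other genes of translation in kidney were taken as lists. At 10 against 8 weeks none of 37 initiation factors (median 0.02) or 8 elongation factors (median -0.01) was called. The same held for 14 other RNAs with a 5′TOP motif, some of them noncoding (median -0.01). Among 44 genes of ribosome biogenesis, Nop10, which encodes a small protein of the box H/ACA particles, rose by 0.33 (adjusted p = 0.00895) and fell by 0.36 from 10 to 12 weeks (adjusted p = 0.00609). Of 77 mitochondrial ribosomal protein genes, Mrpl42 rose by 0.21 (adjusted p = 0.0426), and the median was 0.06. Fau gave 0.11 and Rack1 0.06, and neither of these ribosomal protein genes with other symbols was called. In 21 genes around mTOR none was called (median -0.09).

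Whether the change from 8 to 10 weeks differed between tissues was tested by its interaction in all 36 libraries. Kidney against liver called 0 of 87 members (0.0254% of all genes were called higher and 0.0304% lower) by edgeR and 2 by DESeq2. An unadjusted p below 0.05 was found there for 11 members and for 9.44% of all genes. Heart against kidney called Rpl35rt lower (0.0507% of all genes were called lower and 0.147% higher). In that comparison 24 members and 7.94% of all genes had an unadjusted p below 0.05. Heart against liver called Rpl35rt and Rpl23a lower (0.38% of all genes were called lower and 0.71% higher). Over all 87 members the kidney change exceeded that of liver in 69, with a median difference of 0.15, and that of heart in 71, where heart minus kidney had a median of -0.16. In the 26 members chosen for their kidney change, which favours this direction, the counts were 26 and 23, with medians of 0.27 for kidney minus liver and -0.34 for heart minus kidney, and 0 of these differences passed the adjusted p with edgeR after the filter. Other settings called some of them. Rpl39 and Rps27 were called in kidney minus liver with DESeq2 and without a filter, and in heart minus kidney Rplp0 was called in both and Rps27 and Rps29 without a filter. A difference between tissues in these members thus depends on the setting. In liver the same 26 members had a median of 0.10 from 8 to 10 weeks, with 20 above 0, and -0.09 from 10 to 12 weeks, with 0 called in either.

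In heart, 12 against 8 weeks, 3 of 84 members rose and 2 fell, where 2.36% of all 15137 genes were called higher and 2.21% lower. The share of members called was thus near that of all genes. Rpl36a, of the large subunit (chromosome X, 133486372 to 133488901), was at 49.1, 55.9, 46.8 and 51.3 CPM at 8 weeks, 52.5, 53.2, 55.5 and 72.9 at 10 weeks and 73.1, 68.8, 65.8 and 80.1 at 12 weeks, and rose by 0.50 (SE 0.1008, adjusted p = 0.0153). Of its 150-base windows, 90.5% recur elsewhere in the genome. Rps25, of the small subunit and needed for some internal ribosome entry sites, had 193, 157, 145 and 154 CPM at 8 weeks, 156, 158, 161 and 211 at 10 weeks, and 259, 229, 217 and 209 at 12 weeks. It rose by 0.49 (SE 0.1096, adjusted p = 0.0223), and Rpl35a rose by 0.37 (SE 0.0864, adjusted p = 0.0284), with no overlap between 8 and 12 weeks in either. Exons of other genes cover 61.5% of the mRNA of Rps25.

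The members that fell were Rplp2 and Rplp0 of the stalk, while Rplp1, also of the stalk, was not called. Rplp2 (chromosome 7, 141027274 to 141034167) had 194, 203, 191 and 198 CPM at 8 weeks, 183, 214, 181 and 211 at 10 weeks and 165, 148, 153 and 176 at 12 weeks. Its log2 fold change of -0.30 had an adjusted p of 0.0413 (SE 0.0778), and the 12-week libraries lay below all others. Rplp0 had 111.5, 101.2, 94.2 and 99.7 CPM at 8 weeks and 80.2, 71.1, 70.7 and 94.3 at 12 weeks, with overlap. Its change was -0.37 (SE 0.0971, adjusted p = 0.0414). Exons of another gene cover 44.95% of the mRNA of Rplp0. The median over all tested members was -0.05, with 32 above and 52 below 0.

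These heart counts rest on single libraries. Without replicate 1 of 8 weeks 9 members were called higher and 3 lower. Without replicate 2, 3 or 4 of 8 weeks, or replicate 1 or 3 of 12 weeks, 1 was called higher, and without replicate 2 of 12 weeks 2 were. Without replicate 4 of 12 weeks 5 were called higher and 17 lower. The count lower was 0 without replicate 2, 3 or 4 of 8 weeks or replicate 1, 2 or 3 of 12 weeks. Rpl36a alone of the 5 passed the adjusted p in all 19 alternatives. Between 8 and 10 weeks 0 members were called with edgeR (0.76% of all genes were called higher and 0.304% lower) and 1 with DESeq2. Between 10 and 12 weeks 0 were called with edgeR (0.0132% of all genes higher and 0.0264% lower) and 3 with DESeq2. An unadjusted p below 0.05 was found for 7 and 24 members, and for 15.8% and 11.7% of all genes. At 10 against 8 weeks the smallest adjusted p was that of Rps13 (0.29, adjusted p = 0.0916), followed by Rpl35rt (-1.08, adjusted p = 0.113) and Rpl39 (0.32, adjusted p = 0.184). From 10 to 12 weeks Rpl7 (0.44), Rplp2 (-0.30) and Rps25 (0.41) had an adjusted p of 0.227 each.

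Among the lists of translation genes in heart at 12 against 8 weeks, 3 of 37 initiation factors rose, the cap-binding protein Eif4e (0.29, adjusted p = 0.0389), Eif2b3 (0.37, adjusted p = 0.0428) and Eif2s3x (0.35, adjusted p = 0.0452). Of the biogenesis genes Nop56, of the box C/D particles, rose by 0.30 (adjusted p = 0.0432). Around mTOR, Ddit4, an inhibitor of mTOR complex 1 that stress induces, fell by 1.29 (adjusted p = 0.0204) and Sesn3 rose by 0.36 (adjusted p = 0.0355). Of 76 mitochondrial ribosomal protein genes 2 rose (Mrps33 and Mrpl19) and 2 fell (Mrps24 and Mrps18c). No elongation factor was called.

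In liver 0 of 86 members were called in any comparison of ages with edgeR. The share of all genes called higher was 0.177% at 12 against 8 weeks, 0.0136% at 10 against 8 and 0.0204% at 12 against 10. The share called lower was 0.0613%, 0.00682% and 0.0341%. An unadjusted p below 0.05 was found for 8, 11 and 20 members, and for 15.1%, 14.3% and 14.1% of all genes. DESeq2 called 0, 1 and 2. The medians were 0.08, 0.04 and 0.06. Besides Rps29, the smallest p values belonged to Rpl23a (0.46 from 8 to 12 weeks, adjusted p = 0.171, and 0.77 from 8 to 10 weeks, adjusted p = 0.0792), Rpl35rt (0.76 from 8 to 10 weeks, adjusted p = 0.180), Rpl21 (0.21 from 8 to 12 weeks, adjusted p = 0.232), Rpl35a (0.21 from 8 to 12 weeks, adjusted p = 0.271), Rpl7 (0.27 from 10 to 12 weeks, adjusted p = 0.171) and Rplp0 (-0.36 from 10 to 12 weeks, adjusted p = 0.174). Rps29, which rose in kidney, had 62.2, 74.1, 66.8 and 90.5 CPM in the liver libraries of 8 weeks, 90.1, 110, 146 and 89.2 at 10 weeks, and 62.5, 69.9, 68.3 and 51.0 at 12 weeks. The 10-week libraries overlapped with replicate 4 of 8 weeks and were above all of 12 weeks. The changes were 0.56 (adjusted p = 0.170) and -0.79 (adjusted p = 0.0717).

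From 8 to 12 weeks the interaction between tissues was past the adjusted p in few members. It was called lower in heart than in kidney for Rpl35rt (0.0507% of all genes were called lower and 0.0609% higher) and in heart than in liver for Rpl35rt and Rpl28 (1.81% of all genes lower and 2.35% higher), and for 0 members between kidney and liver (0.137% of all genes were called higher and 0.167% lower). Rpl35rt, a retrogene of Rpl35, was at 1.65 ± 0.579, 0.773 ± 0.166 and 0.832 ± 0.312 CPM in heart at 8, 10 and 12 weeks, and at 0.401 ± 0.0658, 0.670 ± 0.151 and 0.822 ± 0.244 in kidney (SD, n = 4). It had 923 counts in all 36 libraries. With the replicate block its difference between heart and kidney was no longer called (adjusted p = 0.0521 from 8 to 12 weeks and 0.101 from 8 to 10 weeks). Rpl28 was at 165 ± 7.76 and 136 ± 19.3 CPM in heart and 191 ± 10.8 and 211 ± 17.9 in liver at 8 and 12 weeks.

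Between the tissues the members differed together, and the direction depends on how the libraries are scaled. With TMM factors the summed level was 12213 ± 975 CPM in heart, 8681 ± 544 in kidney and 14444 ± 1055 in liver (SD, n = 12). Without scaling factors the shares of the counted pairs were 1.15% ± 0.0928, 1.18% ± 0.0882 and 1.13% ± 0.0748, which overlap. Of 87 members, 68 were higher and 10 lower in heart than in kidney with TMM (39% and 47.1% of all genes), and 31 and 34 without scaling factors. Heart had 10 higher and 53 lower members than liver (42% and 42.2% of all genes), and 33 and 27 without factors. Kidney had 1 higher and 82 lower than liver (46% and 37% of all genes), and 37 and 28 without factors. These shares of all genes are those with TMM and cannot be set beside the counts without factors. Without factors the median of all genes was -0.67 in heart against kidney, 0.22 in heart against liver and 0.93 in kidney against liver.

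The place of the members among all genes moved less. The median of all genes shifted by -0.15 with TMM and -0.67 without factors in heart against kidney. Relative to that median the members were higher in heart than in kidney by a median of 0.65 with TMM and 0.64 without factors, and 76 of 87 lay above it in both. In heart against liver the members lay 0.22 below the median of all genes with TMM and 0.17 below it without factors. In kidney against liver they lay 0.89 and 0.88 below, with 85 of 87 members below the median of all genes in both. Other lists of translation genes were set beside the members, with TMM and relative to the same median. Heart against kidney gave 0.59 for elongation factors, 0.58 for initiation factors, 0.89 for mitochondrial ribosomal protein genes and -0.01 for genes around mTOR. Kidney against liver gave -0.92, -0.66, -0.42 and -0.54 in the same order.

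**Figure D4:**
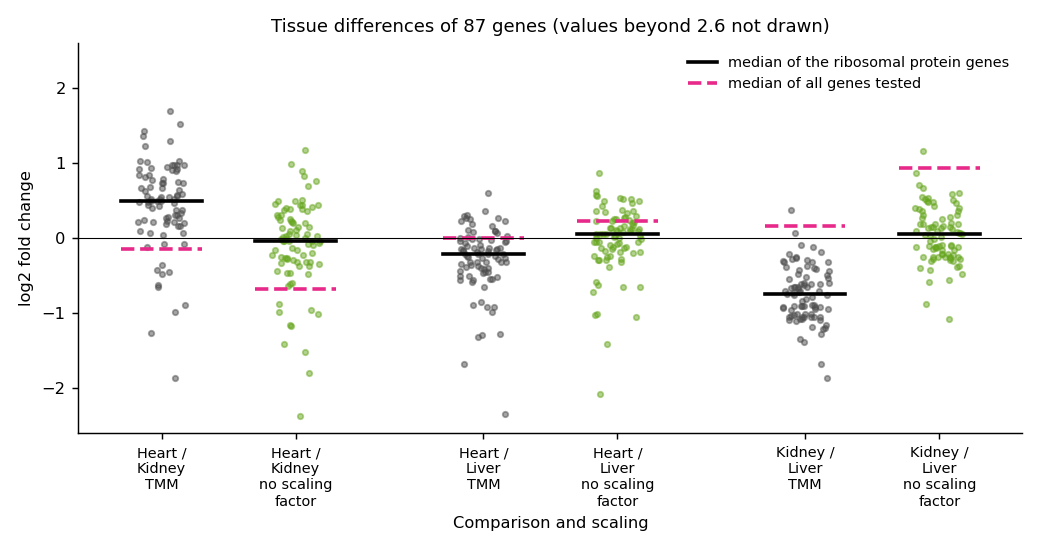
Log2 fold change between tissues of the 87 tested ribosomal protein genes (points), with TMM factors (grey) and with library size only (green), their median (black line) and the median of all genes tested (dashed). The points move with the scaling together with the dashed line, and 6 values beyond 2.6 in size are not drawn for each scaling.

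Single members differed from this common shift, above all Rpl3l. Rpl3l (chromosome 17, 24946751 to 24955119) is the striated muscle paralog of Rpl3, a protein close to the peptidyl transferase centre. In heart it ranged from 168 to 226 CPM with a median of 197, in kidney from 1.19 to 1.75 with a median of 1.45, and in liver from 0 to 0.351 with a median of 0.0495. Rpl3 ranged from 105 to 153 CPM in heart, 209 to 245 in kidney and 263 to 348 in liver. The tissues did not overlap for either gene. Rpl3l made up 61.4% ± 3.23 of the pair in heart, 0.645% ± 0.0877 in kidney and 0.0297% ± 0.0340 in liver (SD, n = 12). The fitted log2 fold change of heart over kidney was 7.05 for Rpl3l (SE 0.0990, adjusted p = 2.1e-35) and -0.88 for Rpl3 (SE 0.0461, adjusted p = 9.41e-19). These pairs were compared in CPM, without regard to length. Of the 150-base windows of Rpl3, 76.2% recur elsewhere in the genome, against 0% for Rpl3l, and of those of Rps27 53.2%, against 0% for Rps27l, so uncounted pairs can lower the main gene and raise the share of the paralog.

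Rps27l, a paralog of Rps27 that p53 induces, took the other order. Of the pair, Rps27l held 24.7% ± 3.20 in the heart libraries, 41.4% ± 3.08 in those of kidney and 54.3% ± 2.29 in those of liver, and the libraries of liver, at 51.3% or more, lay above those of kidney, at 45.0% or less. Beside Rpl7, the share of Rpl7l1 came to 17.4% ± 2.23 for heart, 23.3% ± 1.68 for kidney and 24.8% ± 2.71 for liver, where the libraries of kidney and liver overlapped. Rps4l made up 6.21% ± 1.09, 3.29% ± 0.778 and 5.24% ± 1.22 of its pair with Rps4x, and Rpl22l1 1.76% ± 0.835, 1.55% ± 0.190 and 3.89% ± 0.756 of its pair with Rpl22. Rpl36al had a mean share of 0.136% in heart, 0.438% in kidney and 1.05% ± 0.503 in liver, with 26.02% of its mRNA in exons of another gene. The testis paralog Rpl39l reached at most 0.352% of its pair in any library, and Rpl10l had no count.

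**Figure D5:**
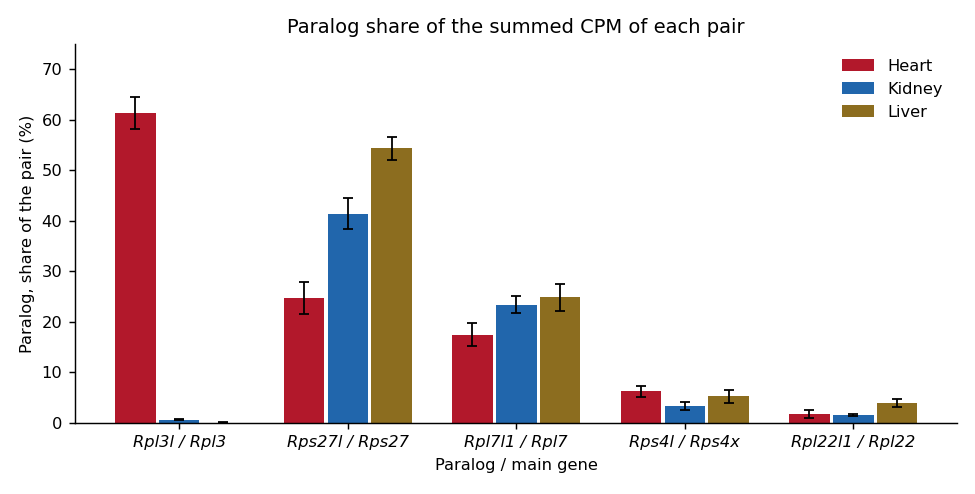
Share of a paralog in the summed CPM of the pair with its main gene in heart, kidney and liver (bars, mean of 12 libraries, with SD). Rpl3l holds 61.4% of its pair in heart and under 1% elsewhere, and the share of Rps27l is 24.7%, 41.4% and 54.3%.

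Of the other members, Rps29 (1.70), Rps4l (1.51), Rpl23a (1.42) and Rpl36 (1.36) had the highest log2 fold changes of heart over kidney after Rpl3l, and Rps23rg1 (-4.22), Rpl36al (-1.87), Rps18 (-1.27), Rps10 (-0.99) and Rpl3 (-0.88) the lowest. Rps23rg1, Rpl36al, Rps18, Rps10 and Rpl23a are among the 15 members with few counts. In heart against liver Rps29 (0.59), Rps15a (0.36), Rplp0 (0.31) and Rps24 (0.29) followed Rpl3l, and Rps23rg1 (-3.85), Rpl36al (-3.72), Rps18 (-2.34), Rps27l (-1.68) and Rpl10 (-1.31) were lowest. Rpl10, which helps to form the site of tRNA binding, was at 257 ± 22.7 CPM in heart, 328 ± 17.8 in kidney and 639 ± 41.9 in liver. In kidney against liver Rpl3l (4.05) was the sole member called higher, a fitted value that rests on few liver counts. Among members called lower, the smallest drops were those of Rpl21 (-0.19), Rpl26 (-0.21), Rpl13a (-0.25) and Rpl9 (-0.26), which turned to 0.61, 0.59, 0.55 and 0.53 without scaling factors, and the lowest were Rpl36al (-1.86), Rpl22l1 (-1.67), Rplp1 (-1.38), Rps4l (-1.35) and Rpl36 (-1.27).

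Per length of their exons, Rplp1 was the most abundant member in every tissue, with 523 ± 48.7 CPM per kilobase in the heart libraries, 266 ± 29.4 in the kidney libraries and 692 ± 68.5 in the liver libraries (SD, n = 12). Rps3a1 came next, with 299 ± 37.8, 203 ± 11.3 and 319 ± 24.1. Rps2, Rps4x and Rpl8 followed in heart, Rpl10, Rpl4 and Rps4x in kidney, and Rpl10, Rps2 and Rpl8 in liver. The lowest levels per length were those of Rpl10l, Rpl27rt and genes such as Rpl36al and Rpl39l, which are among those with few counts. The order depends on the length used, since per coding length Rpl41, which encodes the shortest ribosomal protein, had 728 ± 135 CPM per kilobase in kidney and 1202 ± 205 in liver and stood first in both.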

How the data were processed

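Counts deposited by the authors for each library were used without change. The authors checked reads with FastQC 0.11.9, trimmed them with cutadapt 4.2, aligned them to GRCm39 with STAR 2.7.11b and counted pairs per gene of Ensembl 113 annotation. Of the 3 count columns the unstranded one was taken, since both strands held about equal counts. Such counts omit pairs with several places or several genes, 6.26 to 19.1% and 7.36 to 8.95% of a library. Names, lengths and positions came from GENCODE M39 (Ensembl 116, GRCm39). The 90 members, the gene lists and the named genes were chosen with earlier results of these data known.

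Genes entered the fit of a tissue if at least 1 age had counts above 0 in 2 samples and a mean count of 10 or more. Means per age were modelled with edgeR 4.0.16 (TMM, estimateDisp, glmQLFit, glmQLFTest) in R 4.3.3, with Benjamini-Hochberg adjustment, a call below 0.05 and no fold minimum. Differences between tissues and interactions came from a model of 9 group means over all 36 libraries. Printed levels are CPM with TMM factors of all 36 libraries, while the fits within a tissue used factors of that tissue. Members were named if they have a paralog or a known role, if called between ages (all up to 10, otherwise the 5 highest and 5 lowest), if among the 3 smallest p where none was called, if among the 5 highest or lowest between tissues or per length, or if called in an interaction, and genes of other lists if called, up to 4 a list. Of the members with a known role, Rpl23, Rps20, Rps3, Rpsa and Rpl13a were not called in kidney at 10 against 8 weeks. Some genes that the rule names are not reported here.

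Alternatives were RLE factors, TMM without the members, no filter, DESeq2 1.42.0, a replicate block, counts with named pseudogenes added, and each library left out. Library size only, the interaction from 8 to 10 weeks, coding length and its bins were added after the data had been seen. The fits were tested on simulated data. Replicate libraries differed by more than sampling noise. Figures used matplotlib 3.10.9, sequences pysam 0.24.0, and tables python 3.11.15, numpy 2.4.6, pandas 2.3.3 and scipy 1.17.1. SDs are between libraries, and counting error adds to them in genes with few counts.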

Additional observations from a re-analysis of the deposited data

Results flagged for a closer look

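In 3 of 51 groups of 4 libraries examined, a library lay apart from the other 3 by Dixon's criterion, where chance gives about 1 in 20. In heart at 10 weeks the highest library had 72.9 CPM of Rpl36a, with the next at 55.5 and the lowest at 52.5. It had 211.1 CPM of Rps25, with the next at 160.8 and the lowest at 156.2, and 96.3 CPM of Rpl35a, with the next at 80.2 and the lowest at 78.0. It is replicate 4 of that age in all 3 genes, and all 3 are called at 12 against 8 weeks, a comparison that does not use it for its means.

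The change with age differed between tissues for 3 members by the interaction test. In heart minus kidney 1 of 87 members was called lower in each comparison of ages, and in each 0.0507% of all genes were called lower. In heart minus liver 2 members were called lower from 8 to 12 weeks and 2 from 8 to 10 weeks. The shares of all genes called lower there were 1.81% and 0.38%. For Rpl35rt the change from 8 to 12 weeks was lower in heart than in kidney by a log2 difference of -2.03 (adjusted p = 0.0173) and than in liver by -1.58 (adjusted p = 0.0166). From 8 to 10 weeks these differences were -1.82 (adjusted p = 0.0402) and -1.84 (adjusted p = 0.0122). With the replicate block the difference between heart and kidney was not called (adjusted p = 0.0521 and 0.101). Its mean level was at most 1.65 CPM in any group. For Rpl28 the change from 8 to 12 weeks was lower in heart than in liver by -0.42 (adjusted p = 0.0406), and it was called in 29 of 43 alternatives. For Rpl23a the change from 8 to 10 weeks was lower in heart than in liver by -1.44 (adjusted p = 0.0327), called in 38 of 43 alternatives. Rpl23a had 9.66 ± 3.99 CPM in heart at 8 weeks and 6.07 ± 0.438 at 10 weeks, with 15.6 CPM in replicate 1 of 8 weeks, and 4.74 ± 0.683 and 8.12 ± 0.853 in liver (SD, n = 4). Of its mRNA, 55.7% lies in exons of another gene.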

How the results depend on the processing

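The count of members lower in kidney at 12 against 10 weeks was 36 with DESeq2, and the count higher at 10 against 8 weeks stayed within 1.5 times of 26 in every setting that kept all libraries. In heart at 12 against 8 weeks the counts higher and lower were 7 and 9 without a filter, 8 and 7 with DESeq2, 5 and 4 with the replicate block, and 5 and 0 with library size only. In heart they were 1 and 3 at 10 against 8 weeks and 3 and 4 at 12 against 10 weeks without a filter, and with DESeq2 1 was higher at 10 against 8 weeks, and 2 higher and 1 lower at 12 against 10 weeks. In liver 2 members were higher at 10 against 8 weeks and 1 was lower at 12 against 10 weeks without a filter, and DESeq2 gave 1 higher at 10 against 8 weeks, and 1 higher and 1 lower at 12 against 10 weeks. Without a filter and with DESeq2, 2 members were higher in kidney than in liver. Library size only gave 31 higher and 34 lower in heart against kidney (median -0.0353), 33 and 27 in heart against liver (median 0.0491), and 37 and 28 in kidney against liver (median 0.0529). In that setting the medians of all genes were -0.673, 0.223 and 0.934. Library size only turned Rpl21 (0.61), Rpl26 (0.59), Rpl13a (0.55) and Rpl9 (0.53) to higher in kidney than in liver. The summed level became 11785 CPM in kidney and 11294 in liver.

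For interactions from 8 to 12 weeks, heart minus kidney gave 4 higher and 0 lower with DESeq2, 1 higher with library size only and 0 lower with the replicate block, and heart minus liver gave 4 higher with DESeq2, 1 higher and 1 lower with RLE, 2 higher and 1 lower with library size only, 1 lower without a filter and 1 lower with the replicate block. From 8 to 10 weeks, heart minus kidney gave 5 lower without a filter, 3 with DESeq2, 2 with library size only and 0 with the replicate block, heart minus liver gave 2 higher with DESeq2, and kidney minus liver gave 2 higher without a filter and 2 with DESeq2. Per coding length, 1 of the 5 highest members in heart, 2 in kidney and 2 in liver were those found per exon length. The 5′TOP tract was found within 5 bases of a start in 46.3% of members and 21.2% of all genes. The cause of these differences was not tested.

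Leaving out each library in turn gave 1 to 9 members higher and 0 to 17 lower in heart at 12 against 8 weeks, 0 to 1 higher and 0 to 1 lower at 10 against 8 weeks, 8 to 33 higher in kidney at 10 against 8 weeks and 12 to 29 lower at 12 against 10 weeks, 0 to 1 lower in liver at 12 against 10 weeks, and 1 to 2 higher in kidney than in liver. For interactions from 8 to 12 weeks it gave 0 to 1 higher and 0 to 1 lower in heart minus kidney, and 0 to 2 higher and 1 to 12 lower in heart minus liver, with 12 without replicate 4 of heart at 12 weeks, and from 8 to 10 weeks 0 to 2 lower in heart minus kidney, and 0 to 1 higher and 1 to 2 lower in heart minus liver. The replicate numbers were not taken as pairs, since the labels do not tie libraries to animals and the correlation of deviations passed 0.1 in 4 of 36 pairs between tissues and 2 of 36 between ages, although in 28 of the 36 pairs between tissues the correlation was best with the own number, a hint from the data and not from the design. Precision is lowest in the 15 members with few counts, where a median of 45.5% of the mRNA lies in exons of other genes.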
